A study of Sus scrofa with 220 samples.

Results

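The genes described here are the WNT ligands of the pig embryo together with their processing proteins, receptors, secreted modulators and the core of the intracellular cascade. They were chosen by name alone, as genes whose symbol begins with WNT, FZD, SFRP, DKK, RSPO, AXIN, LGR or TCF7, plus LRP5, LRP6, LEF1, APC, GSK3B, PORCN and WLS, with a count in at least 3 of 220 cells. The names cover 55 symbols in the gene name table, of which 44 had an entry in the expression tables and 39 were kept. Symbols without an entry were not read, which says nothing of their level. Only 11437 of the 22840 gene entries had a symbol, so further family members may lie among unnamed entries. Levels, sums and rankings by role therefore cover the kept genes alone. RSPO4, WNT8B and FZD9 had counts in 1 cell each, and WNT7B and DKK4 in 0 cells. The 39 genes, out of 17450 entries with any count, held 0.0671% of all counts. By role they were 12 WNT ligands, 2 ligand processing genes, 9 receptors and co-receptors, 5 secreted antagonists, 4 R-spondin and LGR genes, 4 genes of the destruction complex and 3 nuclear factors.

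All cells were from untreated embryos of artificially inseminated crossbred sows, and RNA of each cell was read over its full length with Smart-seq2, a poly(A)-based method. The 7 cell groups were morula (M, 47 cells of 8 embryos, 1 of the cells having no embryo label), inner cell mass (ICM, 24 cells of 7 embryos) and trophectoderm (TE, 28 cells of 10 embryos) of the early blastocyst, epiblast (EPI, 25 cells of 4 embryos) and hypoblast (HYPO, 36 cells of 5 embryos) of the late blastocyst (LB), and EPI (48 cells of 4 embryos) and HYPO (12 cells of 3 embryos) of the spherical embryo (Sph). At LB the TE was removed by immunosurgery, and at Sph the EPI and HYPO were separated by hand. TE was therefore sampled at 1 stage, which limits any statement on this lineage to the early blastocyst. The paper inferred the sex of each cell from Y chromosome expression. By its counts all Sph HYPO cells were male, most LB HYPO cells were female, and the other groups held both sexes. Sex was not a term in the comparisons below, and its part in them was not tested. Embryos are named here by the letters in the cell labels, and cells of 1 embryo were averaged or summed before groups were compared.

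WNT ligands are lipid-modified secreted proteins. PORCN adds the lipid in the endoplasmic reticulum and WLS carries the ligand to the cell surface, where it binds a Frizzled receptor (FZD) and, in the canonical branch, the co-receptors LRP5 and LRP6. Without ligand, a complex of AXIN, APC and GSK3B marks beta-catenin for degradation; with ligand, beta-catenin accumulates and acts in the nucleus with TCF and LEF factors. SFRP proteins bind ligands and DKK1 blocks the co-receptors, and R-spondins act through LGR receptors and keep Frizzled proteins at the cell surface. In mammalian embryos the pathway is best known for its roles in primitive streak formation and in axis patterning.

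Gene counts per cell ranged from 1012604 to 5696373, with a median of 2006853.5. Summing over embryo and label gave 41 libraries, of which 6 were of 1 cell and the largest was of 19 cells. Lineage markers were read in each cell at TPM (a transcript level scaled for gene length and depth) over 1. The median TE cell had 5 of 5 TE markers, the median LB and Sph HYPO cells had 4 and 5.5 of 6 HYPO markers, and the median LB and Sph EPI cells had 3 and 4 of 5 EPI markers. The cell labelled TE of embryo E6-ER, which is the whole of its library, had 0 of 5 TE markers (summed TPM 0.368), so it goes against its label. It had 3 of 6 HYPO markers, 1 of 5 EPI markers and 3 of 4 markers of morula and ICM (summed TPM 754). The median TE cell also had 3 of 4 markers of morula and ICM, at a summed TPM of 162. The TE values of genes described in full that change without the E6-ER cell are given both ways. TE markers were also read in Sph HYPO, with 3 to 4 of 5 per cell and a summed TPM of 15500 to 70511, against 1462 to 17381 in Sph EPI. Of the defining TE markers, GATA2 was over TPM 1 in 0 of 12 Sph HYPO cells, GATA3 in 9 of 12 and DAB2 in 12 of 12, against 0, 4 and 2 of 48 Sph EPI cells. The part of this signal in the Sph results below was not tested.

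Few WNT pathway genes were read per cell. A cell had a median of 12 of the 39 genes over TPM 1 in Sph EPI, 11 in Sph HYPO, 8 in LB EPI, 7 in ICM, 7 in LB HYPO, 6 in M and 5.5 in TE (6 without E6-ER). In the same order, the median cell had 6558, 6138, 5457, 5844.5, 5604.5, 6117 and 4939 genes with any count, a looser threshold. This number also had its lowest value in TE and its highest in Sph EPI. M was above ICM, LB EPI and LB HYPO by this number but below them for the 39 genes. Pooling the cells of a group, 34 of the 39 genes were over TPM 1 in at least 1 cell of Sph EPI, 33 in LB EPI, 28 in M, 27 in each HYPO group, 26 in ICM and 21 in TE. Groups with more cells have more chances to reach this count. In all, 15 genes were found in every group and 4 in 1 group only, namely RSPO2 and SFRP5 in Sph EPI, WNT1 in Sph HYPO and WNT10A in LB EPI. These 4 genes had counts in that group alone, so each was kept and tested only through the group where it was high. Later bounds and calls of WNT1 describe the cells through which it was kept. A count of cells at 0 covers counting error only, and 0 of 12 cells in Sph HYPO still allows a share of up to 25%. The heat map of embryo means shows PORCN, GSK3B, RSPO3 and FZD3 as the rows with the brightest blocks, and the plot of cell shares shows how many cells lie behind each of them.

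**Figure D1:**
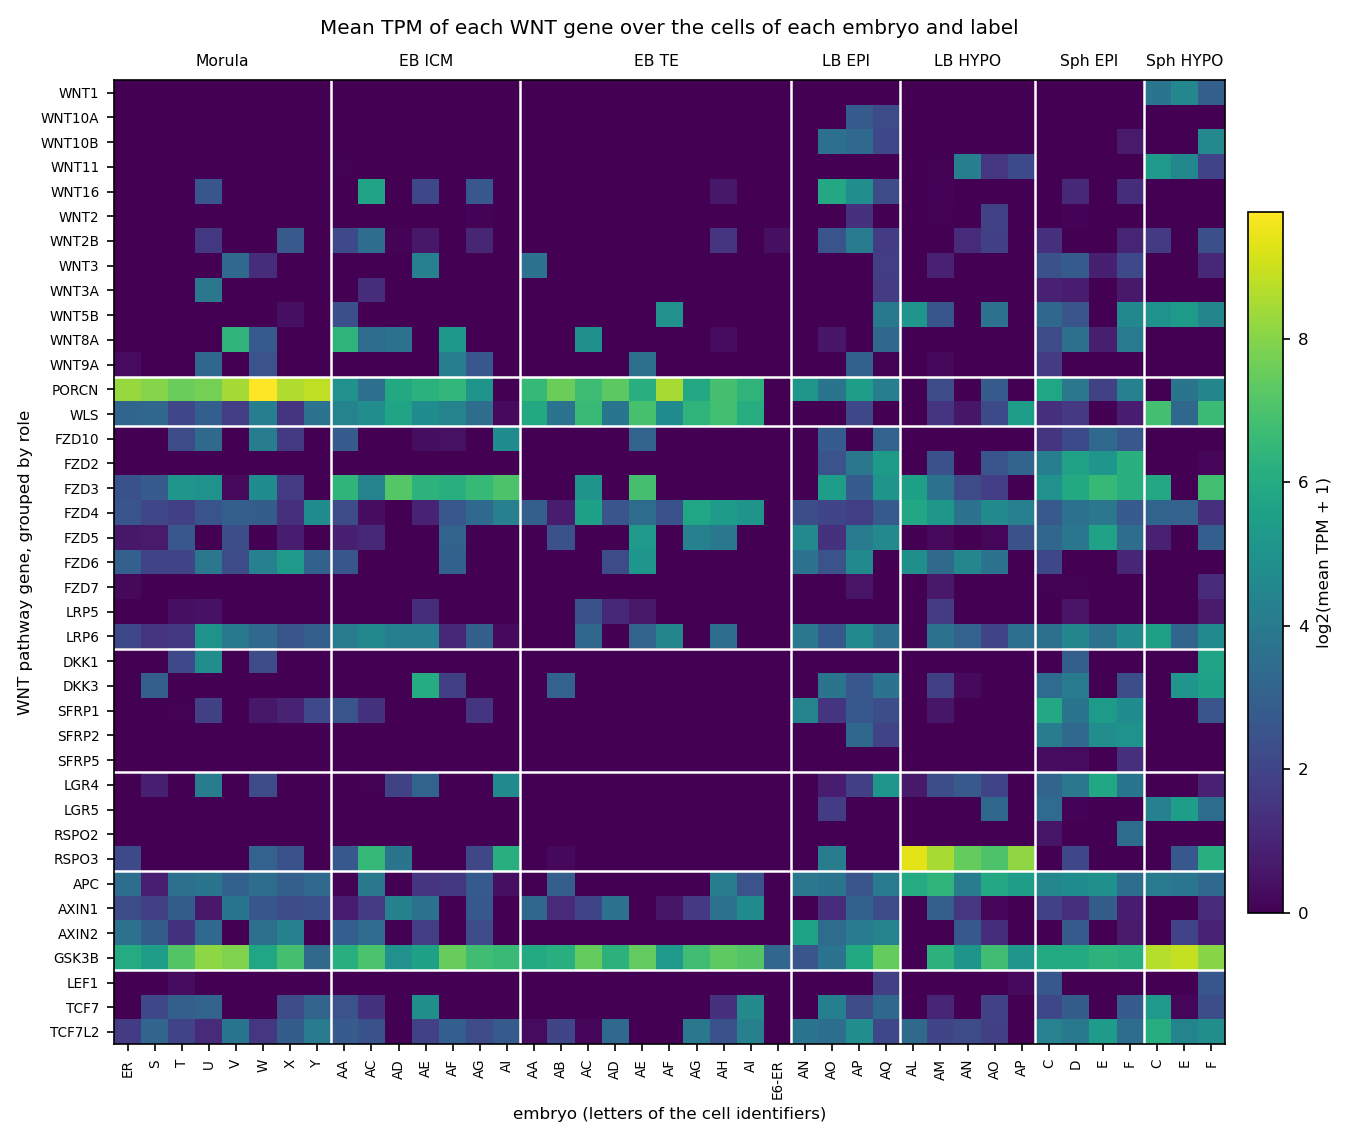
Mean TPM per embryo of the 39 WNT pathway genes (rows, ordered by role) in the embryos of the 7 cell groups (columns), as colour on a log2(TPM + 1) scale. RSPO3 is bright across the 5 LB HYPO embryos, where it lay between 129 and 656 TPM, and PORCN across the 8 M embryos, where it lay between 183 and 871 TPM. The RSPO3 value of 656 is that of embryo AL, a single cell.

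**Figure D2:**
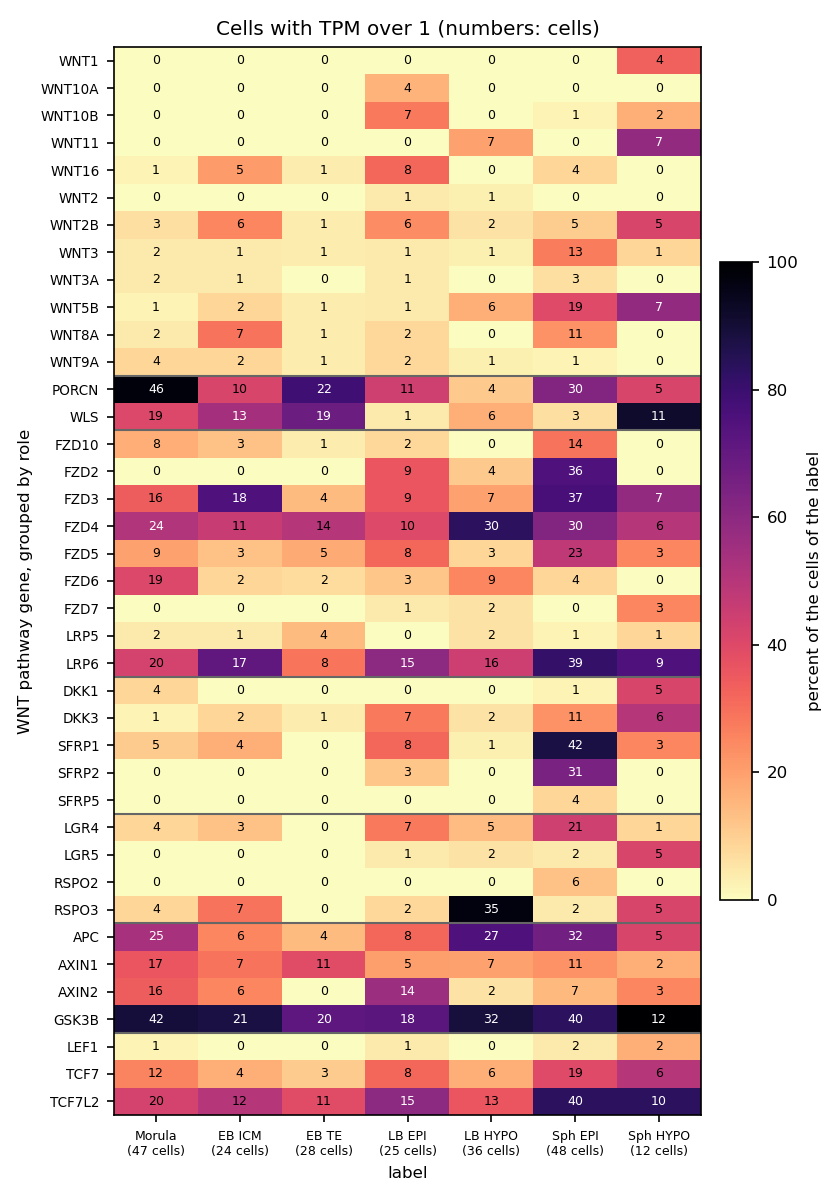
Share of cells of each group (columns, percent) with TPM over 1 for each of the 39 genes (rows). SFRP2 was over 1 in 64.6% of Sph EPI cells and in 12% of LB EPI cells, and RSPO3 in 97.2% of LB HYPO cells.

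The 12 WNT ligands kept were read at low levels. Their summed TPM, averaged over embryos, was 75.1 ± 14.1 (SD, n = 3) in Sph HYPO, 45.5 in LB EPI, 37.2 in ICM, 23.3 in Sph EPI, 17.2 in M, 16 in LB HYPO and 8.48 in TE (9.38 without E6-ER). WNT5B, a ligand mostly known for beta-catenin-independent signalling, had the highest mean level over the groups. Its mean TPM in the Sph HYPO embryos C, E and F was 31.8, 38.9 and 20.6 (30.4 ± 9.25, SD, n = 3), with 7 of 12 cells over TPM 1. In Sph EPI embryos C, D, E and F it was 8.8, 4.9, 0 and 22.8. LB HYPO embryos AL (1 cell), AM, AN, AO and AP had 32.8, 5.1, 0, 11.6 and 0. The Sph EPI and Sph HYPO embryos overlapped, and in M, ICM, TE and LB EPI at most 1 embryo was above TPM 1. Its lowest adjusted p over the 9 comparisons described below was 0.168 (edgeR), so no difference of WNT5B passed.

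Of the other ligands, the following 5 were chosen after their values were seen. WNT11, a ligand of the beta-catenin-independent branch, had a mean TPM of 36.7, 22.4 and 2.91 in Sph HYPO embryos C, E and F and of 0 to 17.3 in the LB HYPO embryos. It had 0 counts in the LB EPI and Sph EPI embryos. WNT1, a founding canonical ligand, had 12.4, 22.2 and 6.76 in the same Sph HYPO embryos, from 4 of 12 cells, and was found in no other group. WNT8A, a canonical ligand of the early embryo, had 81.7 in ICM embryo AA, 36.2 in AF, 11.6 in AD and 9.83 in AC, and was at 0 in the other ICM embryos. It was also over 0 in all 4 Sph EPI embryos, at 3.81, 11.1, 0.775 and 15.8 in C, D, E and F, and had 0 counts in both HYPO groups. WNT16 had 58.2, 26.4 and 3.73 in LB EPI embryos AO, AP and AQ and 0 in AN, and WNT10B had 11, 9.15 and 3.39 in the same embryos and 0 in AN. In Sph HYPO, WNT10B had 23.4 in embryo F and 0 in the others, and WNT16 was at 0.

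Ligand processing was led by PORCN in M. The mean TPM of PORCN, the acyltransferase of WNT ligands, lay between 183 and 871 in the 8 M embryos with a median of 327, and 46 of 47 cells were over TPM 1. In ICM it lay between 0 and 87.5 with a median of 32.1 (10 of 24 cells), and in TE between 0 and 359 with a median of 98.9 (22 of 28 cells). The 0 in TE is the cell of embryo E6-ER, without which TE lay between 58.7 and 359 with a median of 106. Every M embryo was above every ICM embryo, whereas M and TE overlapped. From the blastocyst on, LB EPI embryos AN, AO, AP and AQ had 35.1, 12.5, 43.5 and 16.9, and LB HYPO embryos AL, AM, AN, AO and AP had 0, 3.9, 0, 5.9 and 0 (4 of 36 cells). Sph EPI embryos C, D, E and F had 53.4, 13.6, 2.8 and 18.5, and Sph HYPO embryos C, E and F had 0, 12.7 and 20.8. WLS, the carrier of lipid-modified ligands, was described after its values were seen and had another order of groups: 0 to 120 TPM in TE (12.3 to 120 without E6-ER), 0.200 to 51.3 in ICM, 113, 8.90 and 101 in Sph HYPO embryos C, E and F (11 of 12 cells) and 0 to 2.05 in Sph EPI (3 of 48 cells).

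Among the receptors, FZD3 had the highest mean level over the groups. Its mean TPM in the 7 ICM embryos lay between 19.6 and 147 with a median of 83.5, and 18 of 24 cells were over TPM 1. In the 8 M embryos it lay between 0 and 33.5 with a median of 5.28, and in TE it was found in 2 of 10 embryos, at 32.4 and 118. ICM overlapped both M and TE. Sph EPI embryos C, D, E and F had 29.7, 60.8, 91.9 and 71.3 (37 of 48 cells) and Sph HYPO embryos C, E and F had 59.3, 0 and 110, so that these groups overlapped as well. LB EPI embryos had 0, 43.3, 6.3 and 32.6 and LB HYPO embryos 45.8, 11.5, 3.8, 2.4 and 0. No difference of FZD3 passed, with a lowest adjusted p of 0.107 (edgeR, M against ICM).

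FZD4, the other receptor described in full, was read in all 7 groups. Its mean TPM in LB HYPO embryos AL (1 cell), AM, AN, AO and AP was 55.6, 35.4, 11.3, 24.8 and 18.1. LB EPI embryos AN, AO, AP and AQ had 4.1, 3.1, 2.5 and 5.8. All 5 LB HYPO embryos were above all 4 LB EPI embryos. Cells over TPM 1 were 30 of 36 in LB HYPO and 10 of 25 in LB EPI. At Sph the groups overlapped, with 5.7, 11.5, 13.8 and 6.1 in EPI embryos C, D, E and F and 7.9, 7.5 and 1.6 in HYPO embryos C, E and F. At earlier stages it lay between 1.48 and 26.1 in M (median 4.86), 0 and 17.9 in ICM (median 3.74) and 0 and 54.5 in TE (median 8.40, or 0.725 to 54.5 with a median of 10.1 without E6-ER). FZD2, chosen after its values were seen, had 17.3, 48.7, 34.5 and 72.9 in Sph EPI embryos C, D, E and F, 1 count in Sph HYPO and 0 counts in M, ICM and TE.

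The summed TPM of the secreted antagonists was 64.3 ± 16.4 (SD, n = 4) in Sph EPI, 18.1 ± 2.59 (n = 4) in LB EPI, 0.662 ± 1.37 (n = 5) in LB HYPO and 45.4 ± 52.6 (n = 3) in Sph HYPO, where it lay between 0 and 103, overlapped Sph EPI and came mainly from DKK3 and, in embryo F alone, DKK1. SFRP2, which binds WNT ligands outside the cell, was read in the 2 EPI groups only. Its mean TPM in Sph EPI embryos C, D, E and F was 16.1, 9.2, 26.7 and 31.5 (20.9 ± 10.1, SD, n = 4), and in LB EPI embryos AN, AO, AP and AQ it was 0, 0, 8.5 and 3.0. By mean TPM all 4 Sph EPI embryos were above all 4 LB EPI embryos, whereas the embryo sums of counts overlapped, and the fitted log2 difference of LB EPI against Sph EPI was -2.99 (SE 1.69, adjusted p 0.470, edgeR). SFRP2 was over TPM 1 in 31 of 48 Sph EPI cells (64.6%, exact 95% binomial interval 49.5 to 77.8%) and in 3 of 25 LB EPI cells (12%, 2.55 to 31.2%). It had no count in the other 5 groups, where 0 cells allow a share of up to 6.38% in M, 8.33% in LB HYPO, 10.7% in TE, 12.5% in ICM and 25% in Sph HYPO. These limits are for cells with a count, not for cells expressing the gene. The intervals and limits take cells as independent, although cells share embryos, and leave out the spread between embryos.

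SFRP1, a second ligand-binding antagonist that was chosen after its values were seen, was read in both EPI groups and in more groups than SFRP2. Its mean TPM was 58.5, 12.4, 38.7 and 25.6 in Sph EPI embryos C, D, E and F and 19.6, 1.78, 5.51 and 3.97 in LB EPI embryos AN, AO, AP and AQ. In Sph HYPO it was 0, 0 and 4.89, in LB HYPO it was at most 0.508, and TE embryos had 0 counts. SFRP1 was over TPM 1 in 42 of 48 Sph EPI cells and SFRP2 together with SFRP1 in 28 of 48. DKK3, a divergent member of the DKK family with the highest mean of the antagonists over the groups, had 0, 33.1 and 47.2 in Sph HYPO embryos C, E and F and 9.6, 15.8, 0 and 4.1 in Sph EPI embryos C, D, E and F. In LB EPI it had 0, 12.4, 5.2 and 12.3, and in ICM 64.4 in embryo AE and 2.6 in AF. Its groups overlapped, and its lowest adjusted p was 0.364 (edgeR).

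RSPO3, an R-spondin that potentiates WNT signalling, had the strongest levels of its class and was read mainly in LB HYPO. Its mean TPM in LB HYPO embryos AL (1 cell), AM, AN, AO and AP (2 cells) was 656, 357, 176, 129 and 282 (320 ± 208, SD, n = 5). It was over TPM 1 in 35 of 36 LB HYPO cells (97.2%, exact 95% interval 85.5 to 99.9%, spread between embryos left out). The median was 182 TPM and the highest value 900 TPM per cell. LB EPI embryo AO had 16.2 and the other 3 LB EPI embryos had 0, so every LB HYPO embryo was above every LB EPI embryo. In Sph HYPO embryos C, E and F it was 0, 5.39 and 69.9 (5 of 12 cells), and in Sph EPI it was 3.3 in embryo D and close to 0 in the others. ICM embryos lay between 0 and 90.1 with a median of 5.41 (7 of 24 cells), TE held 2 counts in embryo AB, and 3 of 8 M embryos were over TPM 1, the highest at 7.36. Of the R-spondin receptors, chosen after their values were seen, LGR4 had 8.15, 13.8, 54.9 and 12.8 in Sph EPI embryos C, D, E and F and 0, 0 and 0.855 in Sph HYPO embryos C, E and F. LGR5 had 18.6, 43.1 and 9.86 in those Sph HYPO embryos and 9.76, 0.0739, 0 and 0 in Sph EPI. RSPO3 and an LGR gene were over TPM 1 in the same cell in 7 of 36 LB HYPO cells, 3 of 12 Sph HYPO cells, 2 of 24 ICM cells, 1 of 48 Sph EPI cells and 0 cells of the other groups.

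In the destruction complex, GSK3B, the kinase that phosphorylates beta-catenin for degradation and also acts in other pathways, was read in all groups. Its mean TPM in Sph HYPO embryos C, E and F was 414, 482 and 263 (386 ± 112, SD, n = 3; 12 of 12 cells), and in Sph EPI embryos C, D, E and F it was 61.2, 62.2, 78.0 and 68.8. Every Sph HYPO embryo was above every Sph EPI embryo. M lay between 9.29 and 275 with a median of 91.4, ICM between 29.6 and 181 with a median of 95.5, and TE between 8.40 and 176 with a median of 92.7 (37.1 to 176, median 109, without E6-ER). LB EPI embryos AN, AO, AP and AQ had 5.0, 12.2, 59.7 and 174, and LB HYPO embryos AL (1 cell), AM, AN, AO and AP had 0, 77.5, 32.5, 109 and 33, so that these groups overlapped. AXIN2, which is both a scaffold of the complex and a common transcriptional target of the pathway, was chosen after its values were seen. It had 49.7, 10.1, 14.9 and 19.8 in LB EPI embryos AN, AO, AP and AQ (14 of 25 cells), 0 to 5.40 in LB HYPO, 0 to 5.72 in Sph EPI and 0 counts in TE. APC, the other scaffold, chosen likewise, had 64.0, 80.2, 16.2, 58.1 and 42.7 in LB HYPO embryos AL, AM, AN, AO and AP and 13.8, 12.4, 4.94 and 15.8 in LB EPI embryos AN, AO, AP and AQ.

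TCF7L2, a DNA-binding partner of beta-catenin, had the highest mean level of the 3 nuclear factors kept. Its mean TPM was 66.9, 20.5 and 27 in Sph HYPO embryos C, E and F (10 of 12 cells) and 18.9, 14.3, 41.3 and 10.3 in Sph EPI embryos C, D, E and F (40 of 48 cells). LB EPI embryos AN, AO, AP and AQ had 12.7, 10.4, 26.7 and 3.4, and LB HYPO embryos AL, AM, AN, AO and AP had 9.3, 3.1, 3.7, 2.6 and 0. The groups overlapped, with medians of 4.66 in M, 4.55 in ICM and 1.69 in TE (3.15 without E6-ER), and the lowest adjusted p was 0.517 (edgeR). TCF7 had group means of 0.741 to 14.1 TPM and LEF1, the third factor, of 0 to 1.72 TPM. Over the 7 groups the order of the 9 genes described in full was not shared: PORCN had its highest mean in M, FZD3 in ICM, RSPO3 and FZD4 in LB HYPO, SFRP2 in Sph EPI, and GSK3B, WNT5B, DKK3 and TCF7L2 in Sph HYPO. The plot of embryo values by gene shows these levels with their spread.

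**Figure D3:**
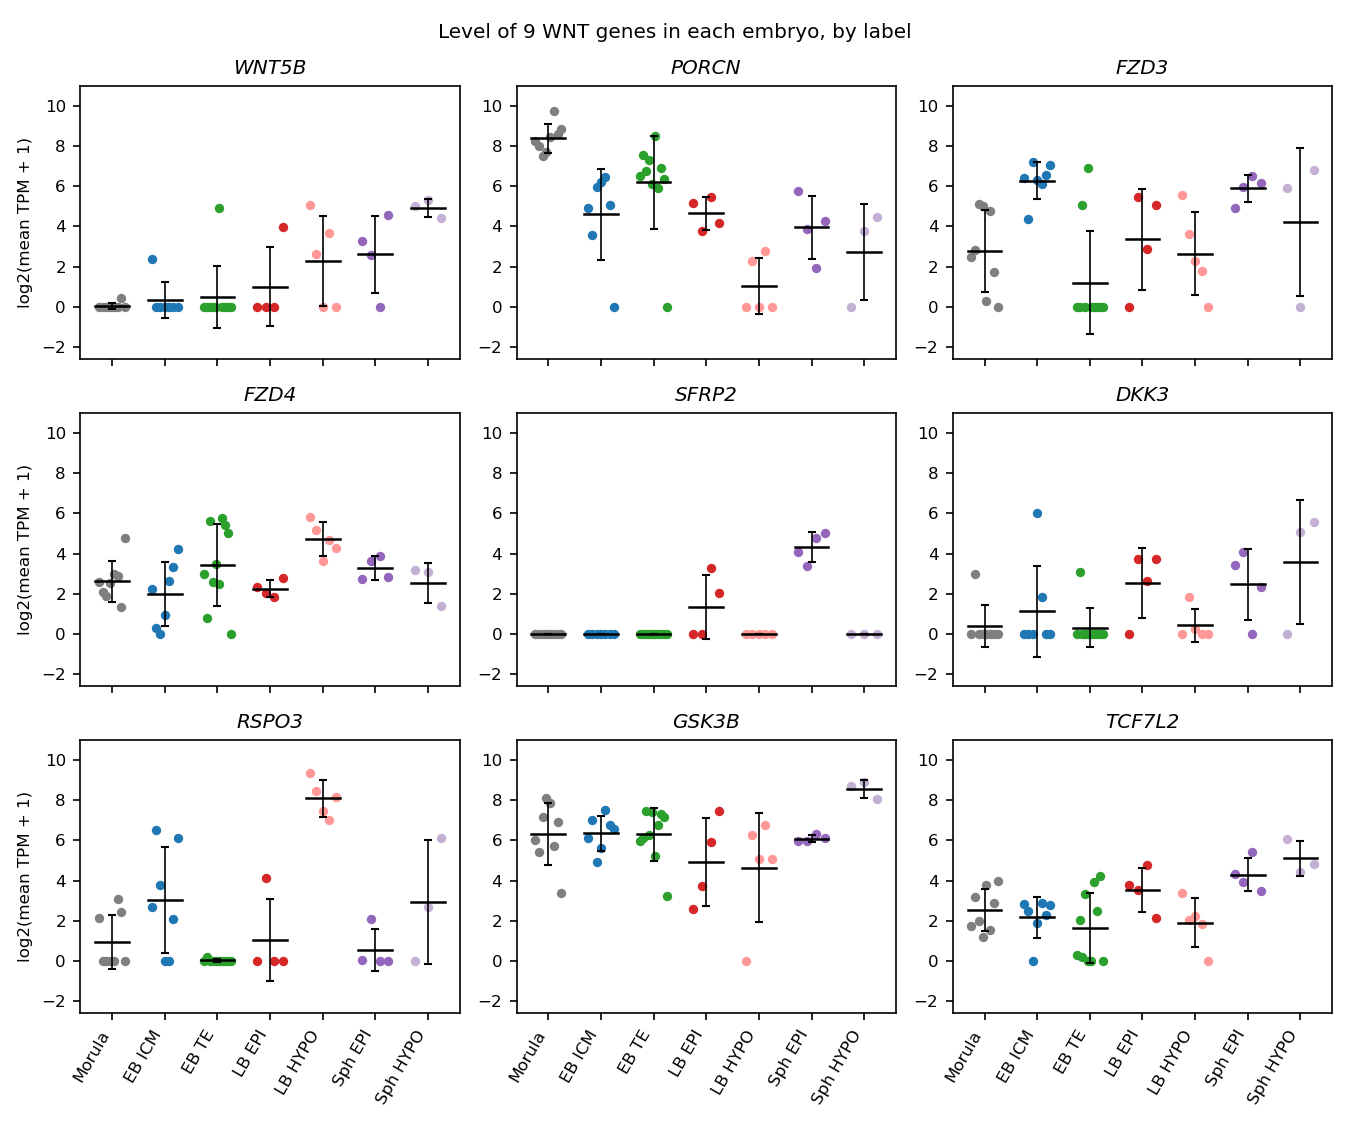
Mean TPM per embryo (points, on a log2(TPM + 1) axis) of 9 genes in the 7 cell groups, with the mean over embryos (line) and its SD (bars). In Sph the 3 HYPO embryos of GSK3B sit between 263 and 482 TPM, above the 4 EPI embryos at 61.2 to 78.0 TPM, while SFRP2 lies above 0 in EPI groups only.

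Groups were then compared over embryos by edgeR's quasi-likelihood test on summed counts, with p-values adjusted over 14721 genes by the Benjamini-Hochberg method, and a gene was called at an adjusted p under 0.05. Of the 39 genes 38 were tested; WNT2 was over TPM 1 in only 2 cells and was left out. Fitted differences below are log2 fold changes of counts with their standard error (SE). Where a group had 0 counts the fold is a lower bound against a floor of 3 counts over the whole group. With 1 to 3 counts the ratio is given with its 95% counting interval. Both treat reads as independent and cover neither amplification nor the spread between cells or embryos, so they are narrower than the real uncertainty.

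In the early blastocyst RSPO3 was higher in ICM than in TE. The ICM libraries held 766 counts and the TE libraries 2, a ratio of 432 with a counting interval of 119 to 3580, and the adjusted p was 0.0194 (edgeR; fitted log2 difference 8.82, SE 1.79). It was the only 1 of the 38 genes called, beside 0.754% of all genes tested, and 6 genes had an unadjusted p under 0.05, beside 18.9% of all genes. The call was lost with limma (adjusted p 0.188), with sums of at least 2 cells (0.123), without ICM embryo AC (0.0538), without TE embryo AB (0.0932) or when the embryo was a block (0.512), and within the first and last 4 library pools the adjusted p was 0.209 and 0.214 at fitted differences of 8.77 and 6.39. Without the E6-ER cell the fitted difference was 8.73 and the adjusted p 0.0189. HYPO markers moved with this result: over TPM 1 were PDGFRA in 19 and FN1 in 24 of 24 ICM cells, against 2 and 3 of 28 TE cells, and their part in it was not tested. DESeq2 called RSPO3 and LGR4, beside 3.05% of all genes.

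Several genes with counts in ICM had 0 counts in TE, without passing the edgeR test. AXIN2 was at least 38.4-fold higher by count in ICM (adjusted p 0.0971), LGR4 at least 68.5-fold (0.10) and SFRP1 at least 84.3-fold (0.110), all by edgeR. WNT16 had a ratio of 230 with a counting interval of 63.3 to 1910 (0.111). Without E6-ER these bounds were 35.4, 63.2 and 77.7, the WNT16 ratio was 212 and the RSPO3 ratio 399. The non-zero values of these genes were spread over 3 to 4 of 7 ICM embryos. None of the 38 genes had ICM and TE embryos that did not overlap, beside 0.36% of all genes tested. The median fitted log2 difference was 0 over the 38 genes and 0 over all genes. Over genes above the floor in either group, with bounds in place of fitted values for genes at 0, it was 1.36 for 26 of the 38 and 0.09 for all genes so filtered.

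At LB, FZD4 was higher in HYPO than in EPI, and the fitted log2 difference of EPI against HYPO was -3.20 (SE 0.62, adjusted p 0.0195, edgeR). It was the 1 gene of 38 called, beside 1.92% of all genes, and 14 of the 38 had an unadjusted p under 0.05, beside 20% of all genes. The call was lost with limma (adjusted p 0.161), without LB EPI embryo AP (0.0731) or AQ (0.0504), without LB HYPO embryo AM (0.0695), with the embryo as a block (-2.90, 0.446) and in a single model of all 7 groups (0.203). Within the first and last 4 pools the differences were -2.89 and -2.91 (adjusted p 0.283 and 0.480). The direction of FZD4 was the same in each of these fits.

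The other large LB differences did not pass the edgeR test. RSPO3 had a fitted log2 difference of EPI against HYPO of -6.31 (SE 1.79, adjusted p 0.110, edgeR), and without LB EPI embryo AO, the 1 EPI embryo with RSPO3 counts, the adjusted p was 0.00048. APC had -2.53 (SE 0.67, adjusted p 0.0811), SFRP1 5.65 (SE 1.94, 0.189), AXIN2 4.09 (0.270) and PORCN 3.23 (0.326). SFRP2 was at least 81.6-fold higher by count in LB EPI, where its counts came from 2 of 4 embryos (adjusted p 0.232). Embryos did not overlap in 6 of the 38 genes, beside 8.58% of all genes: RSPO3, APC and FZD4 were above in HYPO and AXIN2, PORCN and SFRP1 in EPI. DESeq2 called 8 genes, beside 9.4% of all genes. These were FZD4, APC, RSPO3 and WNT11 toward HYPO and AXIN2, SFRP1, WNT10B and WNT16 toward EPI. With limma 2 of the 38 were called, of 696 genes called in all, and PORCN was 1 of them (adjusted p 0.0235). The median fitted log2 difference was 1.35 over the 38 genes, against 0 over all genes, and 1.74 for the 34 above the floor with bounds, against 0.14 for all genes so filtered.

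At Sph, GSK3B was higher in HYPO than in EPI, with a fitted log2 difference of EPI against HYPO of -2.40 (SE 0.43, adjusted p 0.0236, edgeR). It was the 1 gene of 38 called, beside 1.13% of all genes, and 10 of the 38 had an unadjusted p under 0.05, beside 15.2% of all genes. The call was lost without any 1 of the Sph EPI embryos C (adjusted p 0.0738), D (0.0937), E (0.0744) and F (0.0703), without Sph HYPO embryo E (0.0550), with the embryo as a block (-2.27, 0.263) and in a model of all 7 groups (0.320). Within the first and last 4 pools the differences were -2.21 and -2.40 (adjusted p 0.118 and 0.207), and limma on log2(TPM + 1) gave an adjusted p of 0.00748. The TE markers given above, with a summed TPM of 15500 to 70511 in Sph HYPO cells against 1462 to 17381 in Sph EPI cells, move with this difference, and their part was not tested.

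Counts of several Sph genes were in 1 lineage alone, without passing the edgeR test. SFRP2 had 3070 counts in Sph EPI and 0 in Sph HYPO, at least 226-fold higher by count (adjusted p 0.0746), and FZD2 had a ratio of 648 with a counting interval of 116 to 25600 (0.0738). WNT11 had 0 counts in Sph EPI and 286 in Sph HYPO, at least 431-fold higher by count in HYPO (0.0776), and WNT1 at least 223-fold (0.117). WNT1 had counts in Sph HYPO alone, the group through which it was kept and tested. WLS had a fitted difference of EPI against HYPO of -5.78 (SE 1.47, 0.103), LGR4 of 6.0 (SE 1.98, 0.210) and SFRP1 of 4.27 (SE 1.80, 0.305). Without Sph HYPO embryo F, 3 genes were called by edgeR, namely GSK3B, SFRP1 and WNT11, beside 3.96% of all genes in that fit.

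Embryos did not overlap in 12 of the 38 genes at Sph, beside 15.4% of all genes. Above in EPI were the ligand WNT8A, the receptors FZD2, FZD5 and FZD10, the R-spondin receptor LGR4 and the antagonists SFRP1 and SFRP2. Above in HYPO were the ligands WNT1 and WNT11, the carrier WLS, the R-spondin receptor LGR5 and the kinase GSK3B. DESeq2 called 9 genes, beside 9.86% of all genes: FZD2, FZD10, LGR4, SFRP2 and WNT8A toward EPI and GSK3B, WLS, WNT1 and WNT11 toward HYPO. The median fitted log2 difference was 0.41 over the 38 genes, against 0.57 over all genes, and 0.70 for the 37 above the floor with bounds, against 0.55 for all genes so filtered, so values of EPI against HYPO at Sph are to be read against that shift.

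**Figure D4:**
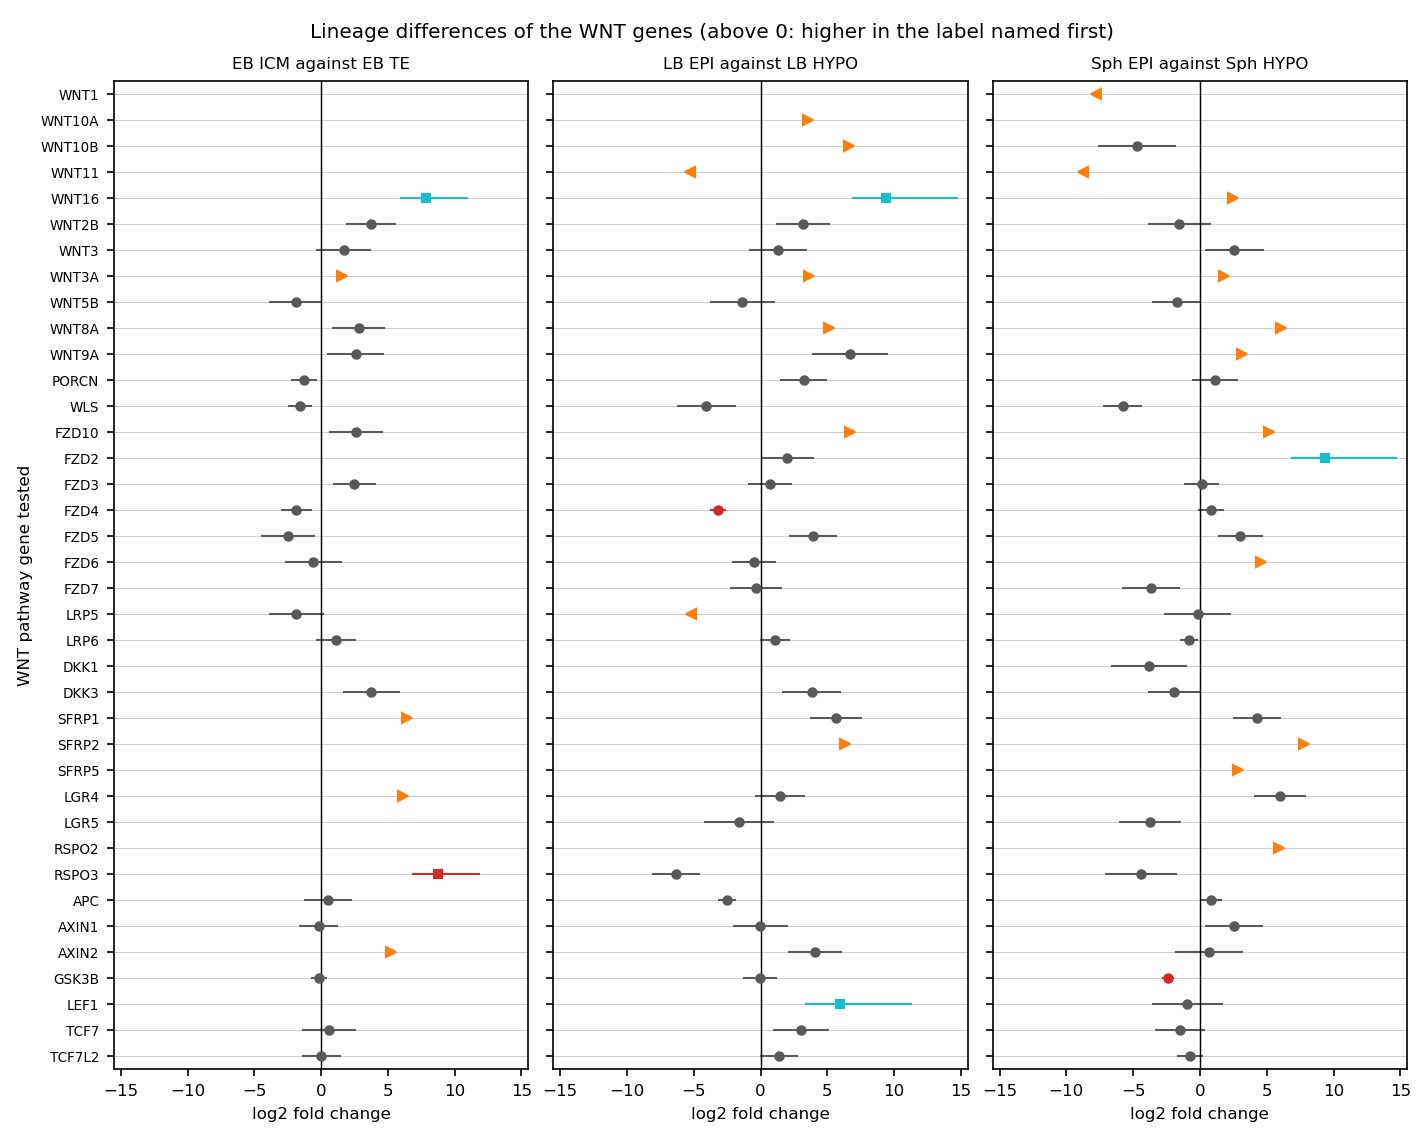
Log2 difference between groups (x axis) of each gene in the comparisons of ICM with TE and of EPI with HYPO at LB and Sph. Circles are fitted values with their SE (red for an adjusted p under 0.05), triangles are lower bounds where 1 group had 0 counts, and squares are count ratios with 95% counting intervals where 1 group had 1 to 3 counts; RSPO3, FZD4 and GSK3B are the red genes in turn.

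From M to ICM, PORCN was lower. The fitted log2 difference of M against ICM was 2.94 (SE 0.72, adjusted p 0.0340, edgeR), with the embryo values given above. It was the 1 gene of 38 called, beside 2.45% of all genes, and 4 had an unadjusted p under 0.05, beside 23.4%. The call was lost without any 1 of ICM embryos AA (0.0683), AC (0.0635), AE (0.0502) and AG (0.0704) or M embryos ER (0.0515), W (0.0744), X (0.0511) and Y (0.0506), and in a model of all 7 groups (0.0799). Within the first and last 4 pools the differences were 4.74 and 2.23 (adjusted p 0.204 and 0.125), and limma gave an adjusted p of 0.00430. FZD3 had a fitted difference of -2.78 (SE 0.96, adjusted p 0.107, edgeR). DESeq2 called PORCN, FZD3 and DKK1, beside 8.19% of all genes. The median fitted log2 difference was 0 over the 38 genes, against 0.02 over all genes, and -0.04 for the 28 above the floor with bounds, against 0.13 for all genes so filtered.

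From ICM to the LB lineages edgeR called 0 of the 38 genes. Against LB EPI, 8 genes had an unadjusted p under 0.05, DESeq2 called 3 (FZD2 and WNT10B toward LB EPI and WLS toward ICM) and limma 0. Over all genes the shares were 2.91% by edgeR, 22.6% at the unadjusted p, 9.33% by DESeq2 and 6.58% by limma. Against LB HYPO, 13 genes had an unadjusted p under 0.05, DESeq2 called 6 (APC, RSPO3 and WNT11 toward LB HYPO and FZD3, PORCN and WNT8A toward ICM) and limma 2 (APC and RSPO3). Over all genes these shares were 2.1%, 22.5%, 7.46% and 4.14%. RSPO3 had a fitted log2 difference of ICM against LB HYPO of -3.82 (SE 1.26, adjusted p 0.138, edgeR) and PORCN of 4.21 (0.174). The medians over the 38 genes were -0.52 against LB EPI and 0.12 against LB HYPO, beside -0.12 and 0 over all genes. For genes above the floor with bounds they were -1.04 and 0.90, beside -0.24 and -0.03 for all genes so filtered, and both comparisons share the ICM libraries.

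From LB to Sph edgeR again called 0 of the 38 genes in either lineage. In EPI, 4 genes had an unadjusted p under 0.05, DESeq2 called 1 (FZD4) and limma 0, beside 0.156%, 13.6%, 5.62% and 0.659% of all genes by edgeR, unadjusted p, DESeq2 and limma. SFRP1 had a fitted log2 difference of LB EPI against Sph EPI of -2.01 (SE 0.79, adjusted p 0.359, edgeR). In HYPO, 9 genes had an unadjusted p under 0.05, DESeq2 called 2 (FZD6 and WNT1) and limma 0, beside 0.163%, 9.52%, 2.32% and 0.163% of all genes in the same order. The fitted differences of LB HYPO against Sph HYPO were 3.35 for RSPO3 (adjusted p 0.467), 2.31 for FZD4 (0.467) and -2.98 for GSK3B (0.433). The medians over the 38 genes were -0.43 in EPI and -1.51 in HYPO, beside 0 and 0.03 over all genes. For genes above the floor with bounds they were -0.63 and -2.11, beside -0.02 and 0.20 for all genes so filtered.

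Whether the EPI against HYPO difference itself changed from LB to Sph was tested as an interaction. By edgeR 0 of the 38 genes were called, 5 had an unadjusted p under 0.05, DESeq2 called 3 (APC, FZD4 and WNT10B) and limma 3 (LGR5, RSPO3 and WNT1). Over all genes the shares were 0.0408% by edgeR, 10.8% at the unadjusted p, 3.67% by DESeq2 and 1.16% by limma. FZD4 had an interaction of -3.92 on the log2 scale (SE 1.06, adjusted p 0.303, edgeR). A difference between stages was therefore not shown for FZD4 or GSK3B by the main test.

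Further genes of the pathway were read from a list of 40, of which 28 had an entry and 27 were tested. ICM against TE had 1 called by edgeR, beside 0.754% of all genes. This was ROR1, a receptor tyrosine kinase that binds WNT5A, with 1994 counts in the ICM libraries and 0 in the TE libraries (adjusted p 0.0383). M against ICM had 2 called toward M, beside 2.45% of all genes. These were ZNRF3, a ligase that removes Frizzled receptors from the surface, with 759 counts in M and 0 in ICM (0.0309), and MYC, a growth regulator and pathway target, with a fitted log2 difference of 6.37 (0.0485). MYC was also lower in ICM, where its 40 counts came from 1 of 24 cells over TPM 1, than in LB EPI (-7.10, 0.0458) and LB HYPO (-8.87, 0.00213). It was the 1 gene of the 27 called in each of these LB comparisons, beside 2.91% and 2.1% of all genes. Its mean TPM was 35.1 ± 34.8 (SD, n = 8) in M and 0.643 ± 1.70 (n = 7) in ICM. In LB EPI it was 53.4 ± 32 (n = 4) and in LB HYPO 208 ± 105 (n = 5). Of the 27 genes, 8, 9, 10 and 13 had an unadjusted p under 0.05 (edgeR) in these comparisons in turn. Over all genes these shares were 18.9%, 23.4%, 22.6% and 22.5%.

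Leaving out single embryos ended 4 of these 5 calls. The call of ROR1 was lost with the embryo as a block (adjusted p 0.393, edgeR) and when any of 14 embryos was left out alone, that of ZNRF3 for 6 embryos, that of MYC in M against ICM for 13 and in ICM against LB EPI for 10, with adjusted p up to 0.0773, 0.058, 0.0872 and 0.0909. The call of MYC in ICM against LB HYPO was kept without any 1 of the 12 embryos and within the first 4 pools, and not within the last 4 (adjusted p 0.157). In the 5 comparisons of EPI with HYPO and of LB with Sph, the interaction included, 0 of the 27 were called by edgeR, and 3 to 7 had an unadjusted p under 0.05. There DESeq2 called 3 at LB (FRZB, MYC and ROR1), 1 at Sph (FRZB), 1 from LB EPI to Sph EPI (DVL2), 0 from LB HYPO to Sph HYPO and 1 for the interaction (ROR1), and limma called 1 at LB (DVL2) and 0 in the other 4. The shares of all genes in these comparisons, given above for each, were 9.52% to 20% at the unadjusted p and 2.32% to 9.86% by DESeq2.

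Ligands, receptors and processing genes were also counted within single cells. At least 1 ligand was over TPM 1 in 11 of 12 Sph HYPO cells, 17 of 25 LB EPI cells, 31 of 48 Sph EPI cells, 14 of 24 ICM cells, 16 of 36 LB HYPO cells, 13 of 47 M cells and 6 of 28 TE cells. At least 2 ligands were read in 9 of 12 Sph HYPO and 11 of 25 LB EPI cells, against 0 of 28 TE cells. A Frizzled gene was over TPM 1 in 46 of 48 Sph EPI, 34 of 36 LB HYPO and 40 of 47 M cells, and a ligand together with a Frizzled gene in 30 of 48 Sph EPI, 8 of 12 Sph HYPO, 14 of 25 LB EPI, 15 of 36 LB HYPO, 12 of 24 ICM, 13 of 47 M and 6 of 28 TE cells. A ligand was read with WLS in 10 of 12 Sph HYPO, 7 of 24 ICM, 6 of 28 TE and 7 of 47 M cells. In LB HYPO, Sph EPI and LB EPI this held for 2 of 36, 2 of 48 and 1 of 25 cells. WLS itself, with or without a ligand, was over TPM 1 in 11, 13, 19, 19, 6, 3 and 1 cells in the same order. A ligand was read with PORCN in 5 of 12 Sph HYPO, 20 of 48 Sph EPI and 13 of 47 M cells. An antagonist was over TPM 1 in 46 of 48 Sph EPI, 8 of 12 Sph HYPO, 14 of 25 LB EPI and 3 of 36 LB HYPO cells. These are descriptions of cells that share embryos, and depth per cell enters each of them.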

How the data were processed

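The deposited tables hold raw read counts and TPM per gene entry for 220 cells. The authors used scythe and sickle for trimming and HISAT2 2.1.0 for alignment to Sus scrofa 10.2, and counted uniquely mapped reads with htseq-count on Ensembl genes, and left out cells that were shallow or rich in mitochondrial reads. The deposited TPM values scale counts for gene length and depth. Multi-mapped reads are not counted, so near-identical genes would be understated. A strand setting for counting is not given in the sources used here, so antisense reads cannot be told apart. For 16 entries added by the authors no gene name was used. Members and lists were chosen with earlier results of these data known.

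TPM was averaged over the cells of each embryo and label. Shares are of cells with TPM over 1, with exact Clopper-Pearson 95% intervals, which cover counting error only, as do the limits from a count of 0 (3 counts). For tests, the counts of all cells sharing an embryo and a label were added up into 41 libraries. Genes over TPM 1 in at least 3 cells were tested (14721), and 9 comparisons were fitted with edgeR 4.0.16 in R 4.3.3 (glmQLFit and glmQLFTest, TMM scaling), two-sided, with Benjamini-Hochberg adjustment over all genes and a threshold of 0.05. Alternatives were DESeq2 1.42.0, limma 3.58.1 on mean log2(TPM + 1), scaling by library size, no filter, filterByExpr, sums of at least 2 cells, cells of less certain embryo left out, 4 of 8 library pools at a time, all 7 groups in 1 model, each embryo left out in turn, the morula cell without an embryo as its own embryo, and the embryo as a replicate block. Thinning each cell to 1000000 counts and the block for the interaction were chosen after seeing the data. Fits were tested on simulated counts. Tables and figures used Python 3.11.15, pandas 2.3.3, numpy 2.4.6, scipy 1.17.1 and matplotlib 3.10.9.

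Described in full were SFRP2, RSPO3, each gene called in a main comparison and the gene with the highest mean level in each role. Labels of the same embryo pair, since they come from 1 animal; the deviations of paired libraries from their group means had a median correlation over 5576 genes of 0.058 (7 pairs, ICM and TE), 0.021 (3 pairs, LB) and 0.075 (3 pairs, Sph). That pairing was read from the letters in the cell labels. The lineage marker lists of TE, HYPO, EPI and of morula and ICM were read as counts of markers per cell.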

Additional observations from a re-analysis of the deposited data

Results flagged for a closer look

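Within groups of 4 to 10 embryos, 17 of 50 sets of values of the 9 fully described genes had a highest or lowest embryo with a gap to the next that exceeded the 95% critical value of Dixon's test. Chance marks about 1 set in 20, and sets that are mostly at 0 are marked by any 1 embryo with counts. All values are log2(CPM + 1) of the embryo sums, where CPM is a count scaled to library size.

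RSPO3 was 0.155 in TE embryo AB, the only TE embryo with counts, 3.609 in LB EPI embryo AO and 2.248 in Sph EPI embryo D, each the highest of its group. GSK3B was lowest in TE embryo E6-ER at 2.864, where the next was 5.254, and in LB HYPO embryo AL, a single cell, at 0, where the next was 5.294. PORCN was 0 in TE embryo E6-ER, where the next was 5.828. Both E6-ER values come from the cell that had no TE marker over TPM 1.

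WNT5B stood apart in Morula embryo X at 0.104, ICM embryo AA at 1.175, TE embryo AF, a single cell, at 3.104 and LB EPI embryo AQ at 2.387. DKK3 stood apart in Morula embryo S at 3.061, TE embryo AB at 3.292 and LB HYPO embryo AM at 2.022. FZD3 was low in ICM embryo AC at 4.888, where the next was 6.836, and in Sph EPI embryo C at 5.586, where the next was 6.684. TCF7L2 was 0 in ICM embryo AD, a single cell, where the next was 2.262, and 0 in LB HYPO embryo AP, of 2 cells, where the next was 2.789.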

How the results depend on the processing

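Alternatives were computed for the fitted differences of the WNT pathway genes printed in the report and for SFRP2 at Sph, and none of these 438 values changed direction. Other bounds and count ratios, and the genes of the wider list, were not followed in this way. The numbers of WNT pathway genes called depended on the setting. In the order ICM against TE, LB EPI against HYPO, Sph EPI against HYPO, M against ICM, ICM against LB EPI, ICM against LB HYPO, LB EPI against Sph EPI, LB HYPO against Sph HYPO and the interaction, edgeR called 1, 1, 1, 1, 0, 0, 0, 0 and 0, and DESeq2 2, 8, 9, 3, 3, 6, 1, 2 and 3. In the same order limma called 1, 2, 1, 3, 0, 2, 0, 0 and 3. Of the 14721 genes it called 226, 696, 367, 666, 969, 610, 97, 24 and 171. Its 1 call in ICM against TE was not RSPO3 (limma adjusted p 0.188). In ICM against TE, 0 were called with filterByExpr, where RSPO3 was not tested, and 0 with sums of at least 2 cells (RSPO3 adjusted p 0.123, edgeR). Within the first 4 pools the first 4 comparisons had 0 each and ICM against LB HYPO 1, and within the last 4 pools the first 4 had 0 each and LB HYPO against Sph HYPO 1. One model of all 7 groups gave 5 for ICM against TE, 2 for ICM against LB EPI, 2 for ICM against LB HYPO (of 865, 755 and 376 genes called in all) and 0 for LB, for Sph and for M against ICM.

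With the embryo as a replicate block 0 were called in each of the 3 comparisons that can be paired, so RSPO3, FZD4 and GSK3B lost their call. The interaction with the same block, added after seeing the data, also had 0 called (FZD4 -3.82). No paired analysis was possible for the other 5 because their groups share no embryo. Leaving out 1 embryo gave 0 to 1 calls in ICM against TE, 0 to 2 at LB, 0 to 3 at Sph, 0 to 1 in M against ICM and in both ICM against LB comparisons, and 0 in the others. RSPO3 passed in 20 of 27 alternatives, FZD4 in 12 of 20, GSK3B in 8 of 17 and PORCN in 14 of 25. The cause of these changes was not tested, except that pools and left-out embryos reduce the libraries compared. Scaling by library size alone moved the median of all genes at LB from 0 to 0.13 and for ICM against LB EPI from -0.12 to -0.01 (log2).

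A gene was over TPM 1 in 196 of 273 pairs of gene and group, 205 over TPM 0, 186 over TPM 5 and 203 with any count after thinning. Of 126 alternative shares of the fully described genes 3 moved, all at TPM 5 (TCF7L2 in TE to 21.4%, FZD4 in Sph EPI to 43.8% and WNT5B in M to 0). Groups of 3 to 5 embryos and libraries of 1 cell limit the precision.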

Other observations

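One M cell whose label names no embryo was left out of the main comparisons. It had 11 of the 39 genes over TPM 1, with PORCN at 411, FZD3 at 70.9, LRP6 at 35.4, GSK3B at 18.7, SFRP1 at 17.3 and TCF7L2 at 11 TPM.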
